A study of Mus musculus with 4 samples.

Results

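Transcripts of 10 genes of the unfolded protein response were followed through 4 lung tumours of male KP mice. They were taken as the rows of the combined count table whose symbol was Ern1, Atf6, Eif2ak3, Xbp1, Ddit3, Herpud1, Trib3, Chac1, Hyou1 or Sdf2l1, and all 10 were found once among 39017 genes. KP mice (C57BL/6) carry a K-ras allele that stays silent until Cre acts, together with the floxed alleles p53Fl/Fl. All 4 tumours formed 1 control group, and the labels also give each as heterozygous fl/wt without naming that gene. By the study's methods, a control could carry no floxed copy or a single floxed copy of Slc2a1, a glucose transporter gene that had 44.0 to 104 CPM here. By the sample records, each mouse received 1500 viral units of lenti.PGK-Cre into the trachea, whereas the study's methods give higher doses for this vector. Tumours were macrodissected 22 weeks and 5 days later, brought into single-cell suspension and sequenced as polyadenylated RNA, 1 library per tumour. The PGK promoter is active in most cell types, so Cre was not restricted to 1 lung cell type, and the suspensions were not sorted. The age of the mice is not given in the sources used here. Whether each tumour came from a separate mouse is not given either, so the 4 tumours may not be independent. With 1 library per tumour, the spread between samples may be partly technical. The tumours are called 1 to 4 by the replicate number of the labels.

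Proteins that enter the secretory route fold in the endoplasmic reticulum (ER), and the unfolded protein response adjusts the folding capacity of that compartment to its load. It is started by 3 sensors in the ER membrane. Ern1 encodes IRE1 alpha, a kinase and endonuclease that cuts the Xbp1 transcript so that an active transcription factor is made. Atf6 encodes a membrane-bound transcription factor that is cleaved in the Golgi. Eif2ak3 encodes PERK, a kinase that slows translation through eIF2 alpha and allows the factor Atf4 to be made. Alveolar type 2 cells, from which KP tumours commonly arise, are secretory cells that make surfactant proteins through the ER.

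Total counts per tumour lay between 8151613 and 8799007. CPM is the count per 1000000 of the effective library size (total count times the TMM factor), and 3 counts, the most that a count of 0 allows, equalled 0.330 to 0.370 CPM. The surfactant markers of alveolar type 2 cells were abundant in all tumours, with Sftpc at 17722 to 29617 CPM. Trp53 was counted at 9.75 to 13.0 CPM, but a count per gene does not separate the floxed exons from the others and does not check the deletion. With 1 group there is no contrast between conditions, so the measurements are the level of each gene and its spread between tumours. A bulk tumour also holds other cells, and fewer cells of a type cannot be told apart from less RNA per cell.

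Some promoters of the response hold short elements that are known to bind its factors, and those of the genes described here are shown for this reason. RefSeq promoter windows (GRCm38.p6, 250 bases before to 50 after the RefSeq start, read 5′ to 3′ along the gene) were matched for 8 of 10 genes, without Atf6 and Hyou1. Searched on both strands were the ER stress element ERSE (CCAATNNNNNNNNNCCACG), ERSE-II (ATTGGNCCACG), the core of the unfolded protein response element UPRE (TGACGTGG) and the C/EBP-ATF element CARE (TGATGNAA). The letters CCACG lie inside both ERSE forms, and their reverse complement lies inside the UPRE core. A match is only a description of letters in the window. The elements were known from promoters of this response, so shares above those of all windows are no independent finding. CARE was found in Herpud1, Chac1 and Trib3, thus in 3 of 8 windows, against 3.91% of all 32544 promoter windows. ERSE-II was found in 1 of 8 windows, that of Herpud1, against 0.0369% of all windows. No full ERSE or UPRE core lay in the 8 windows (0.12% and 0.682% of all windows), and CCACG lay in 4 of 8, against 33% of all. Capitals mark CARE, here on the opposite strand, and in Herpud1 also ERSE-II.
Herpud1, chr8:94386297-94386407, plus strand, -132 to -22 from the start: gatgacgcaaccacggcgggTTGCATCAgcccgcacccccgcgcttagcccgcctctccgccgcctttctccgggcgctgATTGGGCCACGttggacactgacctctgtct
Chac1, chr2:119351029-119351076, plus strand, -213 to -166: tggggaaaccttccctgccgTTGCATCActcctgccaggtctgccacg
Trib3, chr2:152344028-152344057, minus strand, 4 to 33: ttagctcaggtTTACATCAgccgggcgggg

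**Figure D1:**
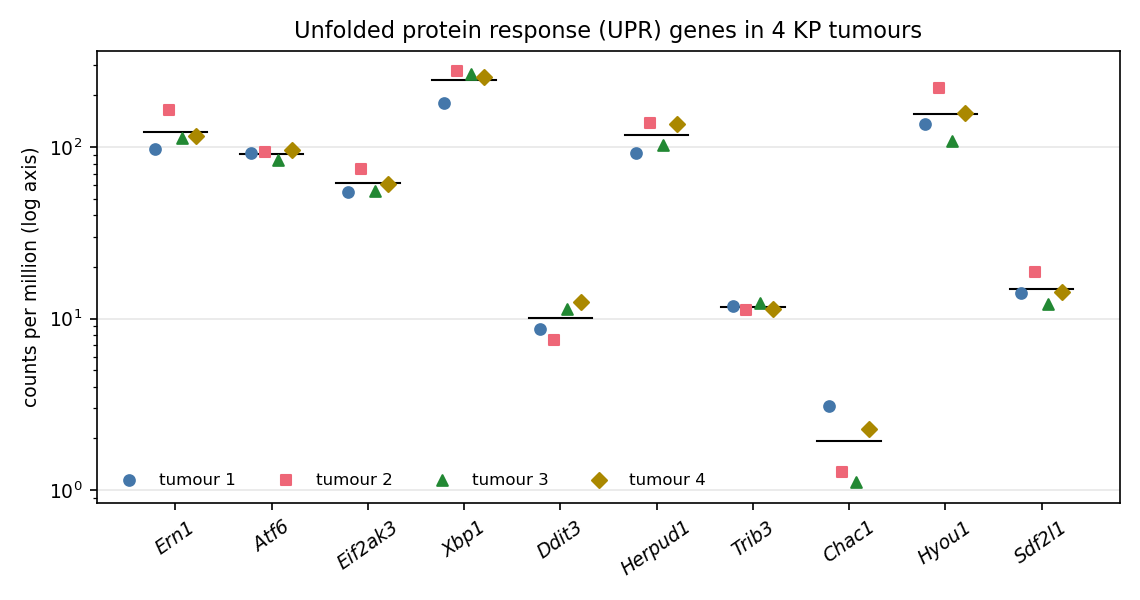
CPM (log axis) of the 10 genes in tumours 1 to 4, 1 symbol per tumour, with the mean as a black line. Xbp1 ran from 182 to 276 CPM and Chac1 from 1.11 to 3.08 CPM, and the points of Atf6 and Trib3 lie closest together.

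The sensors were expressed in every tumour, and of these Ern1 varied most. Ern1 (ENSMUSG00000020715) maps to chromosome 11, minus strand, 106394650 to 106487852 (GRCm38), with an exon union of 8173 nt. It had 96.9, 164, 113 and 116 CPM in tumours 1 to 4 (mean 122 ± 28.7, SD, n = 4). The counts behind them were 881, 1408, 916 and 979. Tumour 2 stood above the others, 1.405 times the next, and tumour 1 was lowest. The SD of its log2 CPM was 0.32, and it fell to 0.14 without tumour 2.

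Eif2ak3 (ENSMUSG00000031668, chromosome 6, plus strand, 70844515 to 70905245) had 54.8, 74.5, 55.2 and 60.9 CPM (mean 61.3 ± 9.19, SD, n = 4). Tumour 2 was again highest, by 1.22 times over tumour 4, and the SD of log2 CPM was 0.21 with all tumours and 0.085 without tumour 2. Its exons overlap 485 nt of an annotated opposite-strand gene, Gm43292, which is not in the count table, so reads there are uncertain. Atf6 (ENSMUSG00000026663, chromosome 1, minus strand, 170704674 to 170867771) had 92.9, 93.2, 84.0 and 96.3 CPM (mean 91.6 ± 5.28, SD, n = 4). Its tumours lay close together, with the highest value 1.15 times the lowest, and the SD of log2 CPM was 0.085 with all tumours and 0.029 without tumour 3.

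To ask whether the spread exceeded counting noise, each gene's counts were compared with Poisson expectations by a chi-square test, adjusted by Benjamini-Hochberg over the 14225 genes that averaged 1 CPM or more (the genes tested). Of all genes tested, 76.7% varied beyond counting noise (adjusted p under 0.05), and 8 of the 10 genes did, a share close to that background. For Ern1 the adjusted p was 7.46e-37 and for Eif2ak3 2.29e-07, and the call of Eif2ak3 was lost without tumour 2. Atf6 did not pass (adjusted p 0.0730), but it passed with library size alone in place of TMM and also without tumour 1 or without tumour 2. The other gene that did not pass was Trib3.

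To set levels of different genes side by side, CPM was divided by the length of the union of annotated exons in kb. Ern1 had 15.0 ± 3.51 CPM per kb (SD, n = 4), Eif2ak3 10.2 ± 1.52 and Atf6 9.92 ± 0.572. Ern1 was above Atf6 in 4 of 4 tumours, by a log2 difference of 0.24, 0.99, 0.60 and 0.45 in tumours 1 to 4 (mean 0.57 ± 0.32, SD, n = 4). It was above Eif2ak3 in 4 of 4 tumours too, by 0.38, 0.69, 0.59 and 0.49 (mean 0.54 ± 0.13). In an exact permutation test that flips the signs of the differences (two-sided), both had an adjusted p of 0.188 over 3 pairs. Each difference had 1 sign in all 4 tumours, which already gives the lowest unadjusted p this test can reach, and that lies above 0.05. Eif2ak3 and Atf6 differed by less than their spread, with a mean log2 difference of 0.03 ± 0.19 (SD, n = 4) and Eif2ak3 above in 2 of 4 tumours (exact p 0.875, adjusted 0.875). Without tumour 2 this difference was -0.061, and with no length correction it was -0.59.

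**Figure D2:**
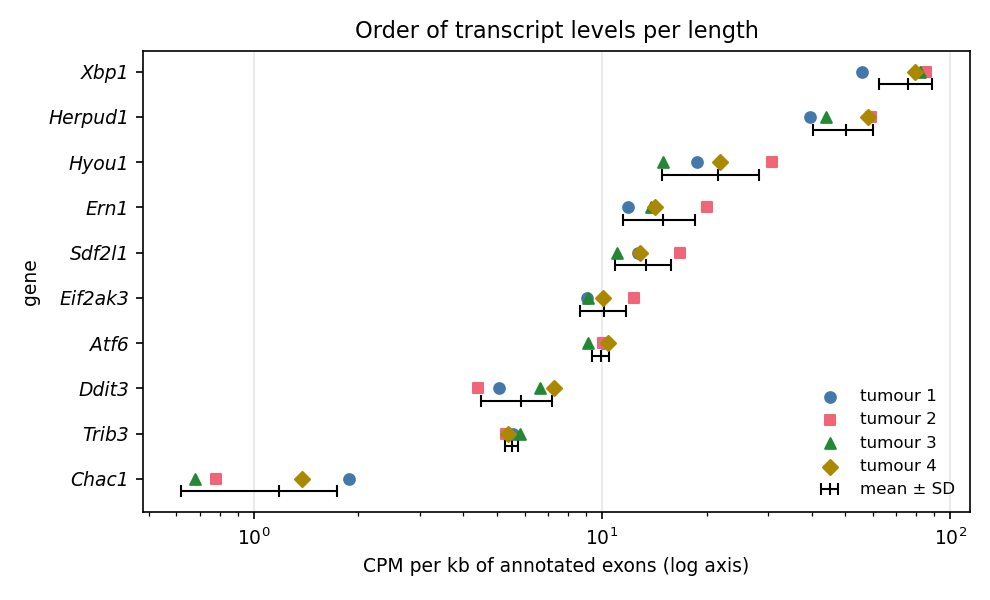
CPM per kb of annotated exons (log axis) of the 10 genes, ordered by mean, with 1 symbol per tumour and the mean ± SD as a black bar beneath. With this length, ranges of neighbours do not overlap at 3 steps. They lie between Herpud1 and Hyou1, between Atf6 and Ddit3, and between Trib3 and Chac1.

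Per kb, Xbp1 ranked first with 75.5 ± 13.3 CPM per kb (SD, n = 4), followed by Herpud1 with 50.2 ± 9.88, Hyou1 with 21.6 ± 6.73, Ern1, Sdf2l1 with 13.3 ± 2.43, Eif2ak3, Atf6, Ddit3 with 5.85 ± 1.34, Trib3 with 5.51 ± 0.224 and Chac1 with 1.18 ± 0.561. The higher gene of each neighbouring pair was above in 4 of 4 tumours, except for Ern1 over Sdf2l1 (3 of 4), Eif2ak3 over Atf6 (2 of 4) and Ddit3 over Trib3 (2 of 4). Thus transcripts of the IRE1 target Xbp1 and of the degradation factor Herpud1 led this order. The PERK arm targets Ddit3, Trib3 and Chac1 came last. The order holds for the exon union, and outside the sensor pairs it was not recomputed with another length. The longest annotated transcript was 969 nt for Ddit3 and 4513 nt for Eif2ak3, against unions of 1713 and 6026 nt. Steps that involve these genes may therefore depend on the length used.

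Xbp1 encodes the transcription factor made active by IRE1, which raises chaperone and degradation genes and is also needed by professional secretory cells. Xbp1 (ENSMUSG00000020484, chromosome 11, plus strand, 5520659 to 5525893) gave 1652 to 2380 counts. Its level was 182, 276, 266 and 257 CPM in the order of the tumours (mean 245 ± 43.1, SD, n = 4). Tumour 1 was low and the others lay between 257 and 276 CPM. The spread was beyond counting noise (adjusted p 1.01e-42) but rested on tumour 1, since the SD of log2 CPM was 0.28 with all tumours and 0.051 without tumour 1, where the call was lost. Counts per gene do not separate the spliced from the unspliced Xbp1 transcript, so the activity of IRE1 was not measured.

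Markers of other secretory cells were set beside Xbp1. The 7 alveolar type 2 markers had a summed CPM of 31380, 54698, 51106 and 58401 in tumours 1 to 4. Of these, 5 of 7 were lowest in tumour 1, as Xbp1 was (30.3% of all genes tested). Lowest there too were 3 of 4 club cell markers, 3 of 4 tested mucous secretory markers and 5 of 6 leukocyte markers, but only 1 of 4 epithelial markers. Plasma cells also use Xbp1, and 4 of 8 plasma cell markers averaged 1 CPM or more. All 4 were highest in tumour 3, where the summed level of the list was 139 CPM against 21.2 to 31.8 in the others, and Tnfrsf17 had 0 counts in tumours 1, 3 and 4. Xbp1 was not highest in tumour 3. The part of any of these cell types in the level of Xbp1 was not tested.

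Hyou1, Sdf2l1 and Herpud1, whose products act at the ER, each had their highest value in tumour 2. Hyou1 (ENSMUSG00000032115, chromosome 9, plus strand, 44379490 to 44392369), a large chaperone of the ER related to Hsp70, had 877 to 1914 counts, or 136, 222, 108 and 158 CPM (mean 156 ± 48.6, SD, n = 4). The highest tumour had 2.05 times the lowest and 1.41 times the next. The adjusted p was 1.30e-81, and the SD of log2 CPM, 0.44, ranked 1838 of the 10269 genes averaging 10 CPM or more. Without tumour 2 or without tumour 3 the range of Hyou1 was below 2-fold, and without tumour 2 its SD was 0.27.

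Sdf2l1 (ENSMUSG00000022769, chromosome 16, minus strand, 17130138 to 17132383), a partner of the ER chaperone complex, had 14.1, 18.6, 12.2 and 14.3 CPM (mean 14.8 ± 2.70, SD, n = 4). Tumour 2 was highest by 1.30 times, with an adjusted p of 0.00884, and without tumour 2 the call was lost and the SD of log2 CPM fell from 0.25 to 0.12. Herpud1 (ENSMUSG00000031770, chromosome 8, plus strand, 94386438 to 94395377), which helps assemble the machinery of ER-associated degradation, had 92.2, 138, 103 and 135 CPM (mean 117 ± 23.1, SD, n = 4). Here tumours 2 and 4 were both high and tumours 1 and 3 low (adjusted p 1.04e-24). In its promoter, shown above, CARE and ERSE-II stand together.

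The PERK arm targets Ddit3, Trib3 and Chac1 were not highest in tumour 2, although Herpud1, which holds CARE as Trib3 and Chac1 do, was. Ddit3 encodes CHOP, a transcription factor linked to cell death in prolonged ER stress. Ddit3 (ENSMUSG00000025408, chromosome 10, plus strand, 127290774 to 127296288) had 8.69, 7.55, 11.4 and 12.5 CPM (mean 10.02 ± 2.29, SD, n = 4). Only 65 to 105 reads per tumour stand behind these values. Tumour 2 was lowest and tumour 4 highest, 1.65 times the lowest (adjusted p 0.00569), and without tumour 2 the call was lost. Exons of Ddit3 overlap 68 nt of Mars and 13 nt of Gm4189 on the opposite strand, and 105 nt of a second annotated gene of the same name that is not in the count table. The strand setting of the counting is not given in the sources used here, so these reads are uncertain.

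Trib3 (ENSMUSG00000032715, chromosome 2, minus strand, 152337422 to 152344032), a pseudokinase induced by Atf4 and CHOP, had 11.8, 11.3, 12.3 and 11.4 CPM (mean 11.7 ± 0.477, SD, n = 4). Its tumours were within 1.10-fold of each other and did not differ beyond counting noise (adjusted p 0.929). The SD of its log2 CPM, 0.058, ranked 10078 of 10269 genes, and without tumour 3 it was 0.032. Chac1 (ENSMUSG00000027313, chromosome 2, plus strand, 119351229 to 119354381), an enzyme that degrades glutathione and a target of Atf4, was scarce, with 28, 11, 9 and 19 counts in tumours 1 to 4. These gave 3.08, 1.28, 1.11 and 2.26 CPM (mean 1.93 ± 0.918, SD, n = 4), with exact Poisson 95% intervals of 2.05 to 4.45 CPM in tumour 1 and 0.508 to 2.11 CPM in tumour 3 that cover counting error only. Tumour 1 was highest and tumours 2 and 3 low, with a range of 2.77-fold (adjusted p 0.0149), and the call was lost without tumour 1 or without tumour 3. The plot of centred values shows Chac1 opposite to Hyou1 and Ern1 in tumour 2.

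**Figure D3:**
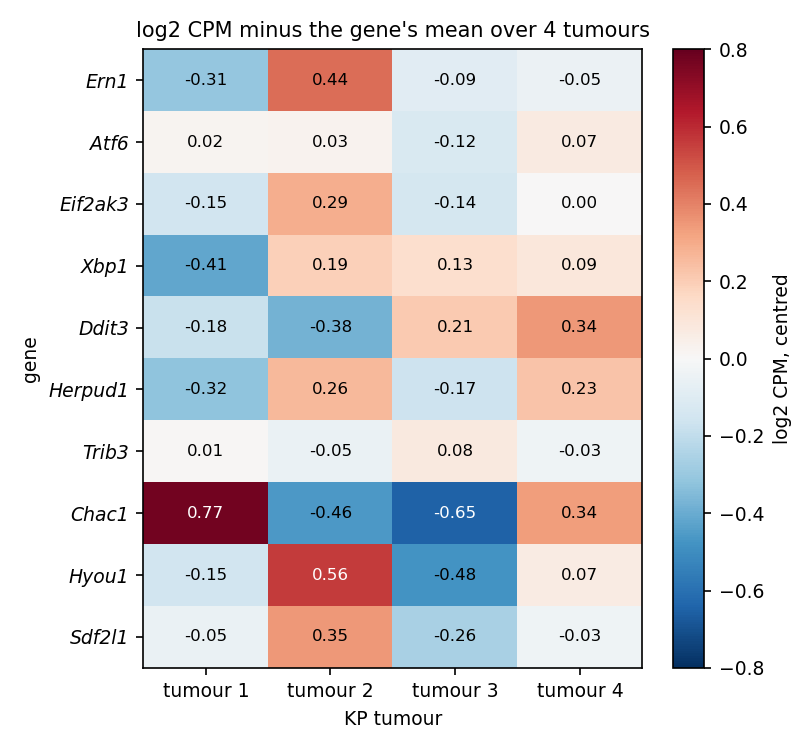
Log2 CPM of each gene minus its mean over the 4 tumours, by gene (rows) and tumour (columns), with the value in each cell. Tumour 2 is above the mean for 7 genes, by up to 0.56 for Hyou1, and below it for Ddit3, Trib3 and Chac1. Atf6 (0.03) and Trib3 (-0.05) lie close to their means there.

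Read together, 6 of the 10 genes had their highest CPM in tumour 2 (Ern1, Eif2ak3, Xbp1, Herpud1, Hyou1 and Sdf2l1), where 20.4% of all genes tested had theirs. For Xbp1 and Herpud1 this was a near tie, with tumour 2 at 1.04 and 1.02 times the next tumour and overlapping counting intervals. Tumour 1 was highest for 1 of 10 genes (31.4% of all genes), tumour 3 for 1 of 10 (30.1%) and tumour 4 for 2 of 10 (18%). Tumours 1 and 3 each held the lowest CPM of 4 of 10 (30.3% and 32.6% of all genes). Tumour 2 held 2 of 10 (19.4%) and tumour 4 held 0 of 10 (17.7%). The median of the 10 centred log2 values was 0.22 in tumour 2 and -0.15, -0.13 and 0.07 in tumours 1, 3 and 4, against medians of all genes tested between -0.01 and 0.01. The number highest in tumour 2 was 6 with DESeq2 size factors and with library size only too.

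Markers of other cells differed between tumours as well. Only the mucous secretory and leukocyte sums were highest in tumour 2, the leukocyte sum through the gene Lcp1. Of 6 mucous secretory markers, 4 averaged 1 CPM or more, and the list summed to 24.98, 252, 42.3 and 100.1 CPM in tumours 1 to 4. Muc5b, Muc5ac, Agr2 and Spdef were highest in tumour 2, with Muc5b at 197 CPM against 2.2 to 80.8 CPM, while Foxa3 was highest in tumour 1 and Tff2 had 0 counts in tumours 2 and 4. The 12 early response genes, which dissociation of tissue can raise, summed to 244 CPM in tumour 2 and 278 to 302 CPM in the others, and 8 of 12 were lowest in tumour 2. The 4 club cell markers summed to 40.5, 608, 881 and 527 CPM, and the 4 epithelial markers to 3972, 2587, 2488 and 2632 CPM. The 6 leukocyte markers summed to 526, 832, 812 and 724 CPM. Their sum was highest in tumour 2, although 5 of 6 were highest in tumour 3. Lcp1 held most of the leukocyte sum, with 412, 696, 542 and 568 CPM in tumours 1 to 4. The 6 macrophage markers summed to 191 to 285 CPM, the 5 endothelial to 199 to 264 CPM and the 5 fibroblast to 297 to 528 CPM, and each of these sums was highest in another tumour than tumour 2. The part of these cells in the levels of the unfolded protein response genes was not tested.

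The size of the spread was not unusual for these libraries. The median SD of log2 CPM was 0.28 over the 10 genes and 0.29 over all genes tested. Among genes averaging 10 CPM or more, as 9 of the 10 did, the median was lower, 0.25, and the upper quartile 0.37. The highest value was more than 2 times the lowest for 2 of 10 genes, Chac1 and Hyou1, against 28.5% of all genes tested. The gene-wise biological coefficient of variation from edgeR ran from 16.9% for Atf6 to 44.8% for Chac1, beside a common value of 30.8% over all genes tested.

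Lists of 98 further genes of the pathway were counted in the same way, 95 of which averaged 1 CPM or more. Together 35 of these 95 genes (36.8%) were highest in tumour 2, against 20.4% of all genes tested. The ER chaperones and folding enzymes held 15 of these 35, thus 15 of 20 genes highest in tumour 2. Tumours 1, 3 and 4 held 2, 0 and 3 (31.4%, 30.1% and 18% of all genes). Near ties were among the 15, such as Txndc5 (427 against 422 CPM in tumour 1) and Dnajc3 (261 against 260.5 CPM in tumour 4). With library size only the number was 13. The median centred log2 CPM of the 20 chaperones was 0.24 in tumour 2 and -0.05, -0.09 and -0.08 in tumours 1, 3 and 4. All 20 varied beyond counting noise, as did 76.7% of all genes tested and 85.3% of those averaging 10 CPM or more. The chi-square test calls smaller differences at higher counts, and these genes are abundant. A range over 2-fold was seen in 0 of 20 (28.5% of all genes tested), and the median SD was 0.22.

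**Figure D4:**
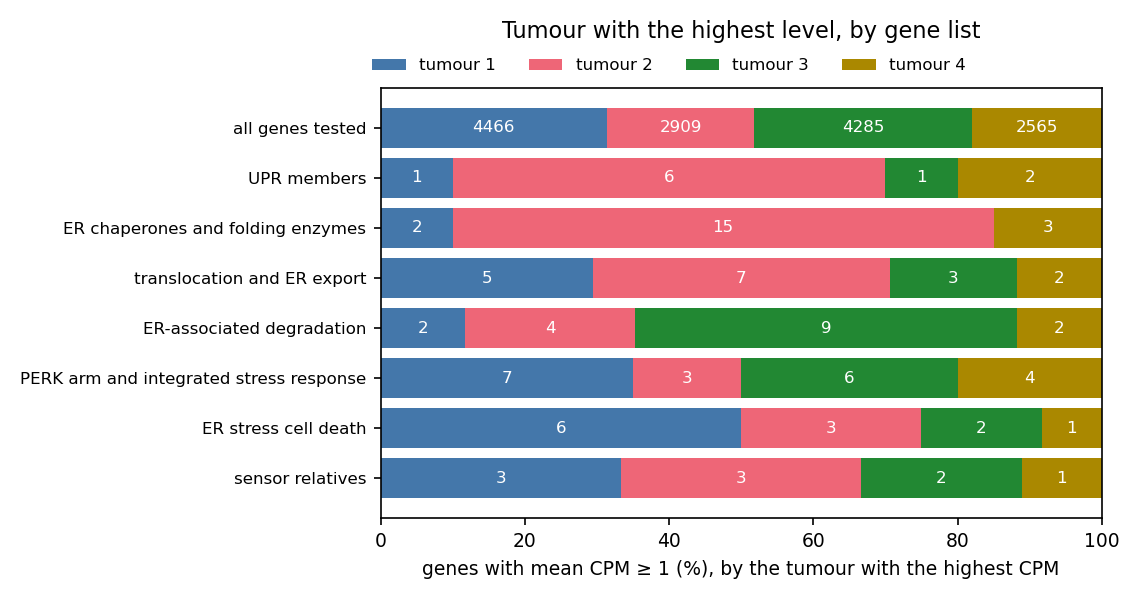
Share of the tested genes of each list (percent) by the tumour in which their CPM was highest, with the number of genes in each bar segment. Tumour 2 takes 6 of 10 members of the unfolded protein response and 15 of 20 chaperones, against 2909 of 14225 genes overall.

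Hspa5, the ER chaperone BiP that binds the sensors at rest, had 863, 1099.7, 928 and 1104 CPM in tumours 1 to 4. It was high in tumours 2 and 4, as Herpud1 was, and the highest tumour had 1.28 times the lowest. P4hb, a protein disulfide isomerase, had the highest level of the list per kb (531 CPM per kb) and the smallest spread, with 1575, 1717, 1402 and 1385 CPM. Txndc11 and Dnajc3 had the largest spread, with 31.0, 59.5, 42.7 and 49.8 CPM for the thioredoxin-domain gene Txndc11, and 161, 261, 207 and 260.5 CPM for Dnajc3, a co-chaperone that also restrains PERK. Both were lowest in tumour 1 and highest in tumour 2, although for Dnajc3 tumours 2 and 4 were nearly equal.

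Promoter windows were found for 18 of the 20 chaperones, and a full ERSE lay in 8 of their 21 windows (38.1%, against 0.12% of all windows). As ERSE was known from promoters of this response, this share is no independent finding. The matches of Hspa5, Hsp90b1 and Dnajc3 are printed to show the letters found. Capitals mark the letters that the search fixed, and the 9 between them were free.
Hspa5, chr2:34772025-34772043, plus strand: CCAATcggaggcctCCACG
Hsp90b1, chr10:86705638-86705656, minus strand: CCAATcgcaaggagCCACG
Hsp90b1, chr10:86705533-86705551, plus strand: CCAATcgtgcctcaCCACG
Dnajc3, chr14:118937827-118937845, plus strand: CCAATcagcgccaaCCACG
Of the 9 chaperones with ERSE or ERSE-II in the window, 6 were highest in tumour 2, and of the 9 without, 7 were.

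**Figure D5:**
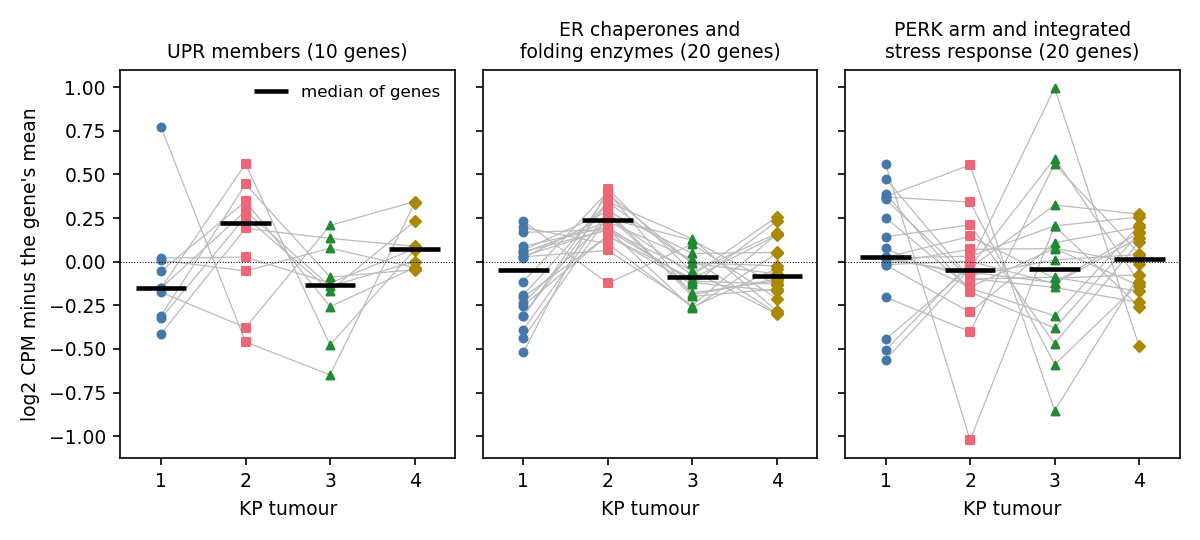
Log2 CPM minus the gene's mean over the 4 tumours for the 10 members of the unfolded protein response, 20 chaperones and 20 genes of the PERK arm. Points are genes, grey lines join the values of 1 gene and black ticks are medians, which reach 0.22, 0.24 and -0.05 in tumour 2.

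The PERK arm and integrated stress response list did not follow tumour 2. Of its 20 genes, 3 (15%) were highest in tumour 2, close to the 20.4% of all genes tested. Tumours 1, 3 and 4 held 7, 6 and 4 (31.4%, 30.1% and 18% of all genes). The median centred log2 CPM in tumour 2 was -0.05. Of these 20 genes 18 varied beyond counting noise (76.7% of all genes) and 4 had a range over 2-fold (28.5% of all genes). The median SD was 0.30. Atf4, the transcription factor of this arm, had the highest level of the list per kb (71.9 CPM per kb) and 171, 162, 156 and 190 CPM in tumours 1 to 4, a range of 1.22-fold. The cystine transporter gene Slc7a11 had 10.9, 15.4, 31.0 and 11.1 CPM, high in tumour 3. Ddit4, an inhibitor of mTOR complex 1, had 41.4, 46.9, 17.6 and 30.3 CPM, low in tumour 3. The smallest spread of the list was that of Cebpg, with 153 to 166 CPM.

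Of the genes of ER-associated degradation, 9 of 17 were highest in tumour 3 (30.1% of all genes), 4 in tumour 2 (20.4% of all genes) and 2 each in tumours 1 and 4. Of the 17 genes 16 varied beyond counting noise (76.7% of all genes) and 3 had a range over 2-fold (28.5% of all genes). The median SD was 0.19. Sel1l, the partner of the ubiquitin ligase of this route, had 256, 513, 365 and 291 CPM and was highest in tumour 2. Vcp, the ATPase that pulls substrates from the membrane, had 263, 258, 447 and 222 CPM and was highest in tumour 3. Vimp, a membrane anchor of Vcp, had the highest level per kb (61.5 CPM per kb) and the smallest spread of the list, with 84.8 to 97.5 CPM.

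For translocation and ER export, 17 of 18 genes averaged 1 CPM or more, and Srp54a had 0 counts in all tumours. Highest in tumour 2 were 7 of 17 (20.4% of all genes), against 5, 3 and 2 in tumours 1, 3 and 4, and 10 of 17 were lowest in tumour 3 (32.6% of all genes). Of these 17 genes 16 varied beyond counting noise (76.7% of all genes) and 0 had a range over 2-fold (28.5% of all genes). The median SD was 0.22. The coat gene Sec24d had 75.04, 71.7, 38.0 and 70.2 CPM, low in tumour 3. Ssr2, a subunit of the translocon-associated complex, had the highest level per kb (126 CPM per kb) and 288, 254, 155 and 243 CPM, also lowest in tumour 3. Sec61g varied least, with 37.1 to 43.6 CPM.

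Of the ER stress cell death list, 6 of 12 genes were highest in tumour 1 (31.4% of all genes), against 3, 2 and 1 in tumours 2, 3 and 4. All 12 varied beyond counting noise (76.7% of all genes) and 5 had a range over 2-fold (28.5% of all genes). The median SD was 0.32. Bak1, an effector of mitochondrial cell death, had 55.8, 27.4, 26.8 and 27.7 CPM, high in tumour 1. Pmaip1, which encodes the BH3-only protein Noxa, had 24.2, 9.18, 14.2 and 16.2 CPM and was also highest in tumour 1. The kinase gene Dapk1 had the highest level per kb (27.0 CPM per kb) and the smallest spread of the list, with 212 to 260 CPM.

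Of the relatives of the sensors, 6 of 9 tested genes were lowest in tumour 3 (32.6% of all genes), and Eif2ak4 and Creb3 were highest there. Atf6b, the paralog of Atf6, had 69.5, 43.6, 34.4 and 37.0 CPM, high in tumour 1. The other eIF2 alpha kinases had 64.7 to 74.3 CPM (Eif2ak1), 57.0 to 80.3 CPM (Eif2ak2) and 41.3 to 60.2 CPM (Eif2ak4), and per kb they stood at 12.3, 13.5 and 6.67 CPM per kb beside 10.2 for Eif2ak3. Creb3l1, a membrane-bound factor of secretory cells, had 64.8, 107, 38.3 and 86.2 CPM and was highest in tumour 2. Its relative Creb3l2 had 109 to 156 CPM, highest in tumour 2 too, and Creb3 had 54.6 to 72.2 CPM, lowest in tumour 2. Crebzf had 87.5 to 144 CPM and Creb3l4 1.85 to 7.26 CPM. Of the 9 genes 8 varied beyond counting noise (76.7% of all genes) and 3 had a range over 2-fold (28.5% of all genes). The median SD was 0.25. Ern2, the IRE1 beta gene of mucus-making epithelium, had 0.110, 1.63, 0.123 and 0 CPM and was above 3 counts only in tumour 2.

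Genes whose pattern over the 4 tumours was most like that of the 3 most variable members were found by the root mean square difference of centred log2 CPM among genes averaging 10 CPM or more. Nearest to Hyou1 were Chek2 (0.044), Mansc1 (0.045) and Pccb (0.054), and the nearest member was Sdf2l1, rank 145 of 10268. Nearest to Ddit3 were Gin1 (0.031), Pdlim2 (0.043) and 4933439C10Rik (0.052), and the nearest member was Trib3, rank 2130 of 10268. Nearest to Chac1 were Daam2 (0.072), Proser2 (0.075) and Scnm1 (0.084), and the nearest member was Atf6, rank 3456 of 10269. Trib3 lay 0.274 from Ddit3, and Atf6 lay 0.535 from Chac1. Both varied little (SD of log2 CPM 0.058 and 0.085), and this measure favours flat genes. Being the nearest member is therefore no likeness of pattern for Ddit3 and Chac1. All these distances over 4 tumours are descriptions.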

How the data were processed

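RNA from 4 dissociated KP lung tumours was sequenced (TruSeq stranded mRNA kit, 500 ng of total RNA), and all 4 samples form 1 group. The authors aligned single-end reads to mm10 with HISAT2, and the submitters' processing notes name cutadapt 1.4.2 and featureCounts 1.4.4, with no strand setting or annotation release. The deposited count tables hold raw counts per Ensembl gene, and 156068 of 156068 values were equal between the combined and single tables. The authors also deposited log2 normalised counts (TMM and voom), used here only as an alternative. The study's methods also filter genes on low TPM, which was not done here.

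CPM used TMM effective sizes (edgeR 4.0.16, R 4.3.3). Log2 CPM had 0.5 added to counts and 1 to sizes. Spread was tested by a chi-square test with 3 degrees of freedom over all genes averaging 1 CPM or more, checked on simulated counts. Sensor levels per kb were compared by exact sign-flip tests (scipy 1.17.1). Exon unions, positions and overlaps came from GENCODE M21 (GRCm38), near-identical copies (at least 80 nt at 97%) from BLAST 2.17.0, and promoters from RefSeq. The only such matches were those of Eif2ak3 with Gm43292 and of Ddit3 with its second entry. Both entries overlap exons of the gene itself (485 and 105 nt), so no copy at another place was shown. The members and lists were chosen with earlier results of these data known. Named were all members, the sensor relatives averaging 1 CPM or more, Atf4, Hspa5 and, per list, the gene highest per kb, the 2 with the largest and the 1 with the smallest SD (10 CPM or more). Others named, such as Ern2, Hsp90b1 and single markers, were chosen after their values were seen. The markers Jchain and Adgre1 stand in the table under the older symbols Igj and Emr1. Alternatives were DESeq2 1.42.0 size factors, library size only, other filters, a deviance test and a prior count of 2. Other lengths were used for the sensor pairs only, and each tumour was left out in turn.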

Additional observations from a re-analysis of the deposited data

Results flagged for a closer look

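Among 30 results checked with Dixon's ratio on the log2 scale, 4 had 1 tumour far from the rest, and chance gives about 1 in 20. Xbp1 was low in tumour 1, at 181.8 CPM. ER chaperones and folding enzymes averaged a log2 CPM of 8.06 in tumour 2 and 7.73 to 7.79 elsewhere. Plasma cell markers averaged 5.01 in tumour 3 and 2.34 to 2.74 elsewhere. Alveolar type 2 markers averaged 10.80 in tumour 1 and 11.80 to 11.98 elsewhere. Xbp1 was the single member of the unfolded protein response, 1 of 10, with such a tumour.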

How the results depend on the processing

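Of 138 recomputed values, 2 changed sign, and the SD of log2 CPM of 7 genes fell by over 1.5 times when 1 tumour was left out (tumour 1 for Xbp1, tumour 2 for Ern1, Eif2ak3, Hyou1 and Sdf2l1, tumour 3 for Atf6 and Trib3). The number of genes with a range over 2-fold was 1 (Hyou1) among the 9 that averaged 10 CPM or more, and 1 to 2 when a tumour was left out. The log2 difference of Eif2ak3 minus Atf6 turned to -0.59 with no length correction, as Eif2ak3 has the shorter exon union, and lay between -0.061 and 0.085 when a tumour was left out. Between 6 and 8 of the 10 genes varied beyond counting noise without 1 tumour, 9 with library size only and 7 of 9 at 10 CPM or more, against 8. The number of chaperones highest in tumour 2 was 16 with DESeq2 size factors or 13 with library size only, and these 2 alternatives were added after the data were examined. No paired analysis was possible because there was 1 group. Depth limits Chac1 most, with 9 to 28 counts.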
